A study of Sorghum bicolor with 14 samples.

Results

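The pollination step of sorghum, the move from the unpollinated pistil to the material of the first days after pollination, was followed in 22518 genes of the 31337 in the authors' table. A gene entered when it had at least 1 TPM (a length-corrected share of all transcripts, scaled to a total of 1000000) at 1 to 2 days before pollination (1-2 DBP) or at 0 to 2 days after it (0-2 DAP). Just inside that limit lay a gene with 0.422 TPM at 1-2 DBP and 1.00 TPM at 0-2 DAP, and just outside it one with 1.00 and 0.846 TPM before and after, the first of these rounded up from below the limit. The series covers the field-grown cultivar M35-1, with 2 libraries at 30 DAP and 3 at each of the other stages, 1-2 DBP, 0-2 DAP, 10 DAP and 20 DAP; whether replicate libraries were taken from different plants is not stated. The 1-2 DBP libraries were labelled as pistil. In the 0-2 DAP libraries the source field reads pistil and the tissue field seed, and the labels do not say whether pollen was present or removed. The cultivar is tagged on the libraries of these 2 stages, and the 10, 20 and 30 DAP libraries are labelled as seed with no cultivar tag. No treatment other than the stage was given. Total RNA was isolated with a modified Trizol method.

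The pistil holds the stigma that receives pollen, the style through which pollen tubes grow, and the ovary with its ovule. After pollination the tube delivers both sperm cells to the embryo sac, where one fertilizes the egg and the other the central cell, which gives rise to the endosperm of the grain. In cereals the stigma and style wither while the ovary wall and ovule grow on, so a sample of whole pistils mixes tissues that decline with tissues that expand. In such a bulk sample fewer cells of a type and less RNA per cell cannot be told apart.

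For every gene there is a single TPM value at each stage, so no value below has a replicate error and no test between stages could be run. Higher and lower below mean a difference of at least 2-fold on the log2(TPM + 1) scale, where folds of weakly expressed genes come out too small. The files pair the gene IDs with no names, and 0 of them matched the reference gene table by ID or by locus number. No gene is therefore given a function, the labelled tissues could not be checked against marker genes, and at most 2 IDs are printed for each direction. Since TPM adds up to a fixed total, a gain in abundant genes lowers the values of all others. The GEO sample numbers of the early stages (1-2 DBP and 0-2 DAP) and of the later ones fall in separate ranges, and 2 library kits are named, Illumina TruSeq and NEBNext Ultra II, with no statement of which served which library. A difference between 0-2 DAP and any later stage therefore cannot be told apart from one between these sets of libraries, whereas 1-2 DBP and 0-2 DAP belong to the same range.

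Most genes did not pass the 2-fold limit across pollination, which does not show that their level was unchanged. With a 1.5-fold limit, 4186 genes were called higher and 3746 lower. Of the 22518 genes, 18779 (83.4%) stayed within 2-fold, and the median log2 difference was 0.01, with the 5th and 95th percentiles at -1.20 and 1.44. A total of 2152 genes, 9.56% of those compared, had a level at least 2-fold higher at 0-2 DAP, and 1587, or 7.05%, were at least 2-fold lower. At least 4-fold differences were found in 541 higher and 349 lower genes, and at least 16-fold differences in 69 higher and 22 lower genes. The strongest differences were thus more often gains than losses. Of the genes counted as higher, the one nearest to the limit went from 36.9 to 74.9 TPM, and the nearest gene short of it from 1.72 to 4.44 TPM. For losses the corresponding genes went from 75.5 to 37.3 TPM and from 24.0 to 11.5 TPM.

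**Figure D1:**
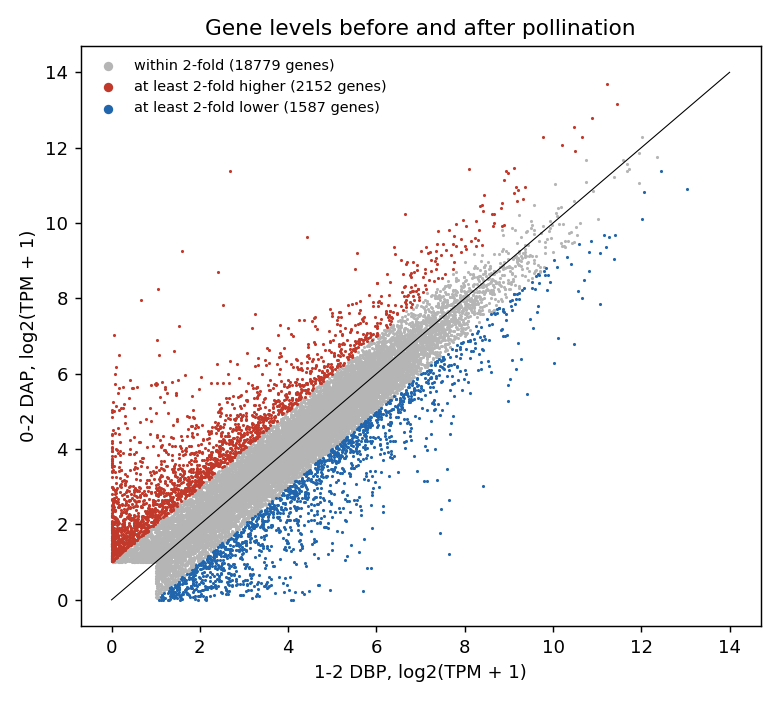
Each point is 1 of the 22518 genes, with its log2(TPM + 1) at 1-2 DBP on the x axis and at 0-2 DAP on the y axis, coloured by the 2-fold rule; the line marks equal values. The 2152 higher genes include a column of points at the left edge that were near 0 before pollination, and the 1587 lower genes reach less far from the line.

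Entry at 1 TPM in either column fixes part of this pattern. Genes under 1 TPM at 1-2 DBP, 762 of the 2152 higher ones, came in only through their 0-2 DAP value, and 354 of the 1587 lower genes had under 1 TPM at 0-2 DAP. In all, 20451 genes had at least 1 TPM in both columns, 1347 at 0-2 DAP alone and 720 at 1-2 DBP alone.

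The transcript mass moved by a small number of abundant genes was large. Summed over all genes, the gains came to 22.7% of all TPM and the losses to the same rounded share. Among the gains, 143 genes held 50% and the 10 largest held 19.8%. The losses were spread more widely, with 309 genes needed for 50% and 11.5% in the 10 largest. Genes past 2-fold accounted for 63.8% of the gains and 48.0% of the losses. The sets of the 100 most abundant genes at either stage shared 49 genes. Of the 100 most abundant at 1-2 DBP 38 were lower after pollination and 8 higher, and of the 100 most abundant at 0-2 DAP 45 were higher and 7 lower; each choice of list favours one direction.

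How often genes moved depended on their abundance, taken as the mean TPM of both stages. Shares were smallest in the middle of the range, with 6.02% higher and 5.83% lower among the 9730 genes of 10 to 50 TPM, and 5.93% higher and 6.60% lower among the 3696 genes of 50 to 200 TPM. Among the 661 genes of 200 to 1000 TPM 13.9% were higher and 13.2% lower. Of the 68 genes with a mean of at least 1000 TPM 30.9%, or 21, were higher and 23.5%, or 16, were lower. At the low end 19.2% of the 2324 genes under 2 TPM and 13.0% of the 6039 genes of 2 to 10 TPM were higher, against 7.62% and 8.21% lower. On this scale both ends of the range moved more often than the middle, the low end mainly through gains. With a pseudocount of 5 that was no longer so at the low end, where 0 genes under 2 TPM were called and 247 higher and 145 lower genes of 2 to 10 TPM, against 201 and 225 of the fewer genes of 50 to 200 TPM.

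**Figure D2:**
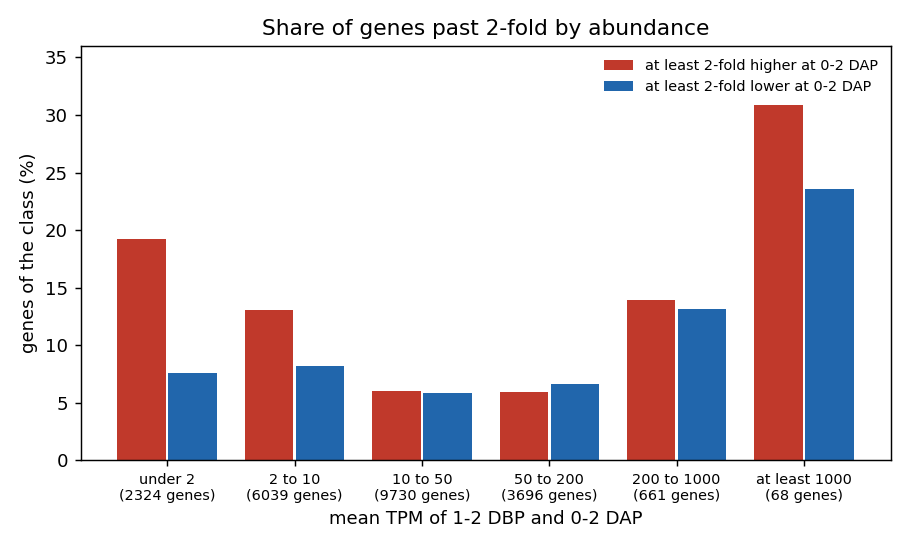
Bars give the percentage of genes in each abundance class (mean TPM of both stages, x axis) that were at least 2-fold higher (red) or lower (blue) at 0-2 DAP. The 10 to 50 and 50 to 200 TPM classes are lowest, and the class of at least 1000 TPM is highest at 30.9% and 23.5%.

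Among moved genes with a mean under 10 TPM 64.7% were higher, and among those of at least 10 TPM 50.1% were higher. Quantile normalization of both columns brought the first share to 53.6% and left the second at 52.0%, so the excess of gains among weakly expressed genes was smaller after that scaling. Median-ratio scaling gave 61.1% and 44.9%, which turned the near balance of the more abundant genes into an excess of losses. The median log2 difference in the classes ran from 0.25 under 2 TPM to -0.11 at 200 to 1000 TPM.

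The ID with the largest gain among genes of at least 20 TPM in either stage was Sobic.004G180301. It had 5.42 TPM at 1-2 DBP and 2667 TPM at 0-2 DAP, which is 8.70 on the log2 scale, then 0.878, 3.08 and 16.6 TPM in the grain at 10, 20 and 30 DAP. Its high value was limited to the 0-2 DAP column. Sobic.001G266300 had 2.01 TPM before and 609 TPM after pollination, or 7.66 on the log2 scale, kept 493 TPM at 10 DAP, and was at 0.398 TPM at 20 DAP and listed at 0 at 30 DAP. It was high at 0-2 and 10 DAP and near 0 on either side of them.

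The largest loss belonged to Sobic.010G130900, with 198 TPM in the pistil, 1.34 TPM once pollinated, 0.104 TPM in the young grain of 10 DAP and 0 listed thereafter, a log2 difference of -6.41 across pollination. Sobic.003G178500 followed, with 173 TPM in the pistil and 2.41 TPM once pollinated, then 0.0204, 0.506 and 0.201 TPM in the 3 later columns, a log2 difference of -5.68. Both were high in the unpollinated pistil only and stayed low.

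The same contrast held for the 12 largest differences in each direction among genes of at least 20 TPM. The 12 largest gains had 0.0397 to 5.42 TPM at 1-2 DBP and 51.8 to 2667 TPM at 0-2 DAP, with a median of 141 TPM. At 10 DAP their median was 15.3 TPM and their range 0.247 to 4374 TPM; 10 of the 12 were highest at 0-2 DAP, and the others at 10 DAP and 20 DAP. The 12 largest losses had 24.6 to 341 TPM before pollination and 0.172 to 7.07 TPM after it. All 12 had their highest value of the series at 1-2 DBP, and 10 of them were under 1 TPM at 10 DAP. The strongly induced genes thus went separate ways later, while the strongly reduced genes stayed under 5 TPM at every later stage.

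Some genes went from near 0 in the pistil to a measurable level after pollination. A total of 278 genes had under 0.1 TPM at 1-2 DBP and at least 1 TPM at 0-2 DAP, of which 100 were listed at 0 before pollination. The reverse was found for 54 genes, of which 10 were listed at 0 after pollination. Each set entered the comparison through its higher column alone. Both counts lie near the floor, depth is unknown, and neither was recounted under other scalings. Among moved genes with a mean under 2 TPM, quantile normalization took the share of higher genes from 71.6% to 53.9%. The 278 genes were weak at 0-2 DAP, with a median of 2.13 TPM and a highest value of 129 TPM. As a set they made up 0.000907% of all TPM before and 0.152% after pollination. In the grain their share was 2.63%, then 1.20% and 0.185%, at 10, 20 and 30 DAP.

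Their later course was not uniform. Of the 278, the stage of the highest value was 0-2 DAP for 129, 10 DAP for 115, 20 DAP for 26 and 30 DAP for 8. These stages come from unscaled values and lie across the gap in sample numbers, and they were not recomputed under scaling. For all higher genes, median-ratio scaling took the share highest at 0-2 DAP from 67.9% to 50.9%. At 10 DAP 155 (55.8%) had at least 1 TPM, then 138 (49.6%) and 23 (8.27%) at the later stages. A few genes held most of the later mass, since the 10 most abundant at 10 DAP made up 69.9% of the set's TPM there. The most abundant of them had 0.0797 TPM in the pistil and 2.21 TPM at 0-2 DAP, and then 6076, 2552 and 2.26 TPM. This gene was barely above the entry level in the first days and among the abundant genes of the grain later.

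Of the 34 genes that had already reached 10 TPM at 0-2 DAP, 19 were listed at 0 in the pistil. For 17 of them the highest value lay at 10 DAP. These 17 had 10.6 to 51.8 TPM at 0-2 DAP and 21.0 to 4374 TPM at 10 DAP, with medians of 15.6 and 129 TPM, a median of 35.7 TPM at 20 DAP, and 16 of them were under 1 TPM at 30 DAP. A further 16 were highest at 0-2 DAP, with 10.7 to 129 TPM there and a median of 0.896 TPM at 10 DAP. The remaining gene had 11.4 TPM in the first days, 0.646 TPM by 10 DAP and its highest value of 48.6 TPM at 30 DAP. The limit of 10 TPM set the lower bound of both larger groups at 0-2 DAP, and neither group was high at 30 DAP. Because the groups were formed by their highest unscaled value, their difference at 10 DAP is built in.

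**Figure D3:**
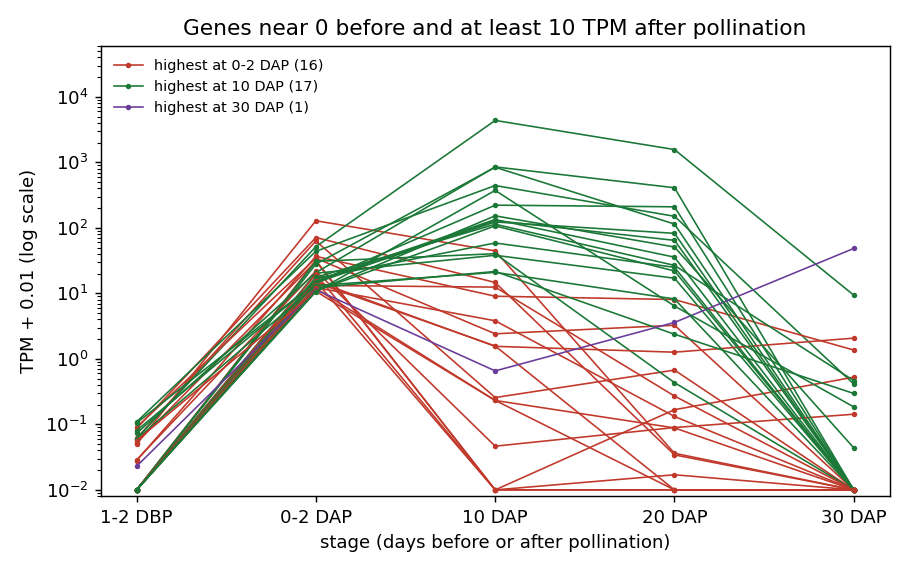
Lines follow the 34 genes with under 0.1 TPM at 1-2 DBP and at least 10 TPM at 0-2 DAP over all 5 stages, as TPM + 0.01 on a log scale, coloured by the stage of their highest value. The 17 genes highest at 10 DAP (green) lie higher at 10 DAP and low at 30 DAP, while the 16 highest at 0-2 DAP (red) are lower from 10 DAP on, 8 of them below 1 TPM at 10 DAP.

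The 54 genes that went from at least 1 TPM to under 0.1 TPM mostly stayed low. Of these, 47 had their highest value at 1-2 DBP, and 8 had at least 1 TPM at 10 DAP, with 6 and 5 doing so in the older grain. Their sum of 3779 TPM at 30 DAP came mainly from a single gene with 1.26 TPM before and 0.0170 TPM right after pollination, followed by 7.99, 306 and 3022 TPM in the grain.

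Over the whole series, the higher genes made up 5.45% of all TPM before and 19.9% after pollination, and 9.26%, 5.53% and 5.38% in the grain of 10, 20 and 30 DAP. The lower genes held 16.1% before and 5.23% after pollination, and then 6.36%, 8.61% and 26.0%. The values of the first 2 stages follow from the rule that chose the genes, and the later ones do not. Genes within 2-fold held 78.3%, 74.7%, 56.5%, 40.3% and 47.4% at the 5 stages. The shares of both moved sets at 10 DAP were close to each other, and at 30 DAP the lower genes held the larger one.

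In numbers of genes pooled over all abundance classes, the later decline was steeper for the higher set. At least 1 TPM was kept by 73.7%, 64.4% and 38.1% of the higher genes at 10, 20 and 30 DAP. For the lower genes the shares were 69.3%, 64.0% and 58.0%, and for genes within 2-fold 89.3%, 82.6% and 71.1%. The classes differed. Under 2 TPM the shares at 10 and 30 DAP were 53.1% and 19.7% of the higher and 24.3% and 18.1% of the lower genes. At 200 to 1000 TPM they were 67.4% and 69.6% of the higher and 96.6% and 87.4% of the lower genes. The pooled median level at 30 DAP was 0.383 TPM for the higher genes, 2.22 TPM for the lower genes and 3.32 TPM for genes within 2-fold. A value of 0 was listed at 30 DAP for 479 of the 2152 higher genes and 312 of the 1587 lower genes. Pooled over classes, the higher genes had the lowest median of the 3 groups at 30 DAP. This also held after median-ratio scaling over 5 columns, with 0.934, 5.42 and 8.10 in the same order, and after quantile normalization, with 1.93, 7.66 and 10.5. Under 2 TPM the unscaled median was lowest for the lower genes, at 0.0253 TPM against 0.0359 TPM for the higher genes.

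The stage of the highest value also differed between the sets. Among the higher genes 1461 (67.9%) had their highest value at 0-2 DAP itself, 452 at 10 DAP and fewer later, 132 at 20 and 107 at 30 DAP. Among the lower genes 1218 (76.7%) were highest in the pistil, 83 and 60 at 10 and 20 DAP, and 226 at 30 DAP. With median-ratio scaling, which raises the later columns, the shares at 0-2 DAP and 1-2 DBP were 50.9% and 51.9%, and 35.0% of the lower genes were highest at 30 DAP, close to the 31.5% of the genes within 2-fold. For genes within 2-fold 12.3% were highest at 10 DAP, against 21.0% of the higher and 5.23% of the lower genes, and after that scaling these shares were 15.3%, 23.2% and 5.61%.

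Some genes of each set became far more abundant in the grain. At least 10 times the mean of both early stages and at least 100 TPM at a later stage were reached by 109 of the 2152 higher genes (5.07%), 60 of the 1587 lower genes (3.78%) and 149 of the 18779 genes within 2-fold (0.793%). Of the 109 higher genes 65 were highest at 10 DAP, and their median was 0.314 TPM before and 8.54 TPM after pollination, then 151, 154 and 1.54 TPM. Of the 60 lower genes 51 were highest at 30 DAP, and their median was 8.24 TPM before and 1.70 TPM after pollination, then 13.3, 161 and 804 TPM. Of the 149 genes within 2-fold, 43 were highest at 10 DAP, 23 at 20 DAP and 83 at 30 DAP. Gains around pollination that went on in the grain thus peaked mostly at 10 DAP. Losses that were regained peaked mostly at 30 DAP, as did most of these genes within 2-fold. The bar of 10 times the early mean was not compared by abundance class.

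At 30 DAP few genes held most of the TPM of either moved set, with 50% in 7 of the lower and 6 of the higher genes. The most abundant higher gene there had 12834 TPM. The most abundant lower gene had 8455 TPM at 1-2 DBP, the highest value of that column, then 1916 TPM at 0-2 DAP and 6279, 4702 and 49903 TPM in the grain. The next had 1421, 110, 21.5, 1010 and 32535 TPM at the same 5 stages. Both together held 0.988% of all TPM at 1-2 DBP, 0.203% at 0-2 DAP and 8.24% at 30 DAP. Without them, the remaining lower genes that were highest at 30 DAP held 14.1% there. The 4 higher genes of at least 20 TPM with the highest later values included one that went from 0.0508 to 51.8 TPM at pollination and had 4374, 1571 and 9.38 TPM in the grain.

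Near absence at 10 DAP, which here means under 5% of the mean of both early stages, was found for 16.4% of all higher genes, 21.7% of all lower genes and 2.90% of the genes within 2-fold. Under 2 TPM the shares were 15.7% of the higher and 41.2% of the lower genes, and at 2 to 10 TPM 14.1% and 28.2%. The order of both sets was the opposite among abundant genes, above a limit set after the values were seen. Of the 332 higher genes with a mean of at least 50 TPM over both early stages, 100 (30.1%) were near absent at 10 DAP. At that abundance the same held for 41 of 347 lower genes (11.8%) and 39 of 3746 genes within 2-fold (1.04%). In the class of at least 1000 TPM it held for 15 of 21 higher genes, 1 of 16 lower genes and 6 of 31 genes within 2-fold (19.4%). These 100 genes were already high in the pistil, with a median of 116 TPM at 1-2 DBP, and had a median of 482 TPM at 0-2 DAP, against 0.602, 0.269 and 1.02 TPM in the 3 grain columns. They had their highest levels on both sides of pollination and were near 0 in the grain.

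Together the 100 genes held 2.71% of all TPM in the unpollinated pistil and 10.6% at 0-2 DAP, against 0.0251%, 0.0207% and 0.0620% in the grain. They accounted for 54.9% of the TPM gained by all higher genes and for 8 of the 10 largest gains. Their median fold was 3.50, with quartiles of 2.97 and 4.74, so a moderate fold in abundant genes carried the mass. The other 2052 higher genes held 2.74% of all TPM in the pistil, 9.27% after pollination and 9.24% at 10 DAP. Because the split used the 10 DAP value, the difference between both sets at that stage is built in. Within the higher set the 452 genes with their highest value at 10 DAP went from 1.29% of all TPM at 0-2 DAP to 6.23% at 10 DAP, so much of the remainder was lower there. Their near absence lies across the gap in sample numbers, and their gain at pollination does not.

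**Figure D4:**
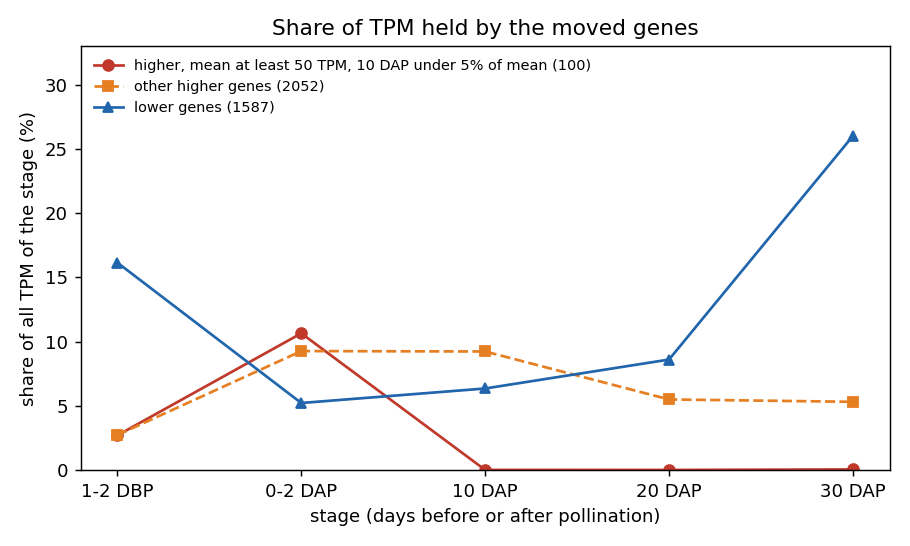
Lines give the percentage of all TPM of each stage (x axis) held by the 100 higher genes of at least 50 TPM that were near absent at 10 DAP, by the other 2052 higher genes and by the 1587 lower genes. The first line peaks at 10.6% at 0-2 DAP and is near 0 from 10 DAP on, the second is at 9.27% and 9.24% at 0-2 and 10 DAP (the split used the 10 DAP value), and the third reaches 26.0% at 30 DAP.

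The IDs of these 100 genes were unevenly spread. Of the 100, 59 had IDs that do not end in 00, against 21 of the other 232 higher genes of at least 50 TPM (9.05%) and 4.91% of the genes within 2-fold that were not near absent at 10 DAP. Over all levels 10.2% of the genes within 2-fold had such IDs. By class their share was 4.52% at 50 to 200 TPM, 7.05% at 200 to 1000 TPM and 35.5% at 1000 TPM or more. For all higher genes of these classes it was 16.9%, 34.8% and 52.4%. The 100 were more abundant than the other 232, with medians of 482 and 158 TPM at 0-2 DAP. By prefix, 19 of the 100 were Sobic.K, which carries no chromosome number, and 33 were Sobic.003G, and these groups overlap with the 59. Among the other 232 genes 0 were Sobic.K and 38 Sobic.003G, and among all 22518 genes 146 and 3340. Of the 39 near-absent genes within 2-fold of at least 50 TPM, 6 were Sobic.K and 6 Sobic.003G. Among these 39, 23.1% had IDs not ending in 00, against 9.76% of the 41 near-absent lower genes. Of the 100, the 56 genes outside Sobic.K and outside the stretch described next held 1.67% of all TPM before and 6.70% after pollination. That rise follows from how the genes were chosen. Without Sobic.K and that stretch, 56 of 280 higher genes of at least 50 TPM (20.0%) were near absent at 10 DAP. The same held for 39 of 345 lower genes (11.3%) and 33 of 3738 genes within 2-fold (0.883%).

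Genes with Sobic.K IDs moved more often than any other prefix, with 73 of 146 higher and 6 lower. For the 10 numbered prefixes the share of higher genes ran from 7.97% to 13.0%, the largest being Sobic.005G with 147 of 1129 genes. The 73 higher Sobic.K genes had a median of 4.14 TPM at 1-2 DBP, 22.5 TPM at 0-2 DAP and 0.0168 TPM at 10 DAP. Of the 146 genes, 127 were under 1 TPM at 10, 20 and 30 DAP alike. Their share of all TPM was 0.838% before and 1.21% after pollination and 0.00280% at 10 DAP.

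Some higher and some lower genes lay side by side in ID order. Among the numbered prefixes, 562 higher genes (27.0%) formed 240 runs of 2 or more neighbours, and 361 lower genes (22.8%) formed 162 such runs. Of all genes compared 9.56% were higher and 7.05% lower, and no share for a random order is given. The longest run of higher genes had 13 members, on Sobic.003G between Sobic.003G168425 and Sobic.003G169104, neither of which was past 2-fold. Its summed level was 1438 TPM at 1-2 DBP, 5758 TPM at 0-2 DAP and 38.7 TPM at 10 DAP. Runs of 11 and 10 higher genes followed on the same prefix. The longest run of lower genes had 7 members, between Sobic.008G027500 and Sobic.008G028400, and its summed level was 92.6 TPM before and 5.94 TPM after pollination and 8.10 TPM at 10 DAP.

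All 3 longest runs of higher genes belong to a single stretch of Sobic.003G, whose bounds were set after its values were seen. Between Sobic.003G168425 and Sobic.003G173400 lie 69 IDs, of which 62 entered the comparison, and 44 of these (71.0%) were higher and 0 lower. This stretch alone carried 12.7% of the TPM gain of all genes. Its 44 higher genes held 0.917% of all TPM before and 3.79% after pollination, and 0.0365%, 0.0163% and 0.0277% in the grain. They ranged from 1.73 to 13292 TPM at 0-2 DAP, with a median of 272 TPM, and their most abundant member led the whole 0-2 DAP column. The ratio of 0-2 DAP to 1-2 DBP had a median of 4.12, quartiles of 3.10 and 4.88 and a range of 2.32 to 30.4, where the 2-fold rule removed low ratios. Of the 100 genes above, 25 lie in this stretch, and both sets passed the same 2-fold rule. Their quartiles are therefore not independent and were not compared. At 10 DAP 35 of the 44 were under 5% of their earlier mean.

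Not every gene of the stretch followed this course. Inside it, 6 genes were within 2-fold at pollination and at least 5 times higher at 10 DAP than the mean of both early stages. Sobic.003G172914 had 8.06 TPM before and 7.21 TPM right after pollination, followed by 501, 135 and 45.0 TPM. Its neighbour Sobic.003G172916 had 11.4, 11.5, 468, 134 and 32.8 TPM at the same stages. The next ID in order after Sobic.003G172916 was among the higher genes, going from 491 to 2650 TPM, with 146 TPM at 10 DAP. Adjacent IDs of the stretch thus differed in their course, with the early and the grain genes next to each other in ID order.

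**Figure D5:**
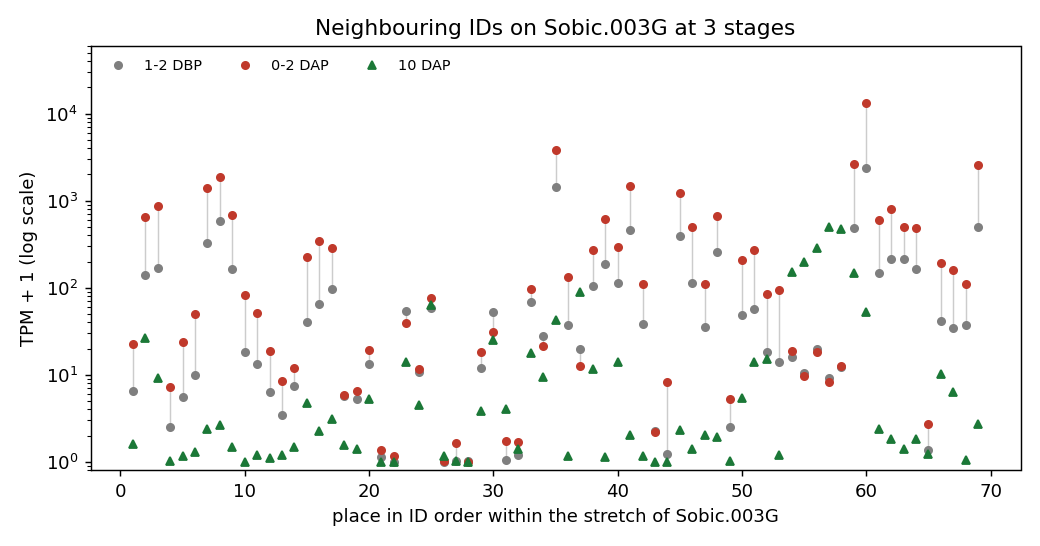
Points give TPM + 1 on a log scale for the 69 neighbouring IDs of the Sobic.003G stretch, in ID order on the x axis, at 1-2 DBP (grey), 0-2 DAP (red) and 10 DAP (green triangles), with a grey line joining the early stages. In 44 of the IDs red lies at least 2-fold above grey, and in most of these green lies near the bottom; 6 IDs show green far above both.

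Abundant genes were also found outside the moved sets. Sobic.003G034200 was within 2-fold at pollination, with 4170 TPM before and 4999 TPM after it, and had 2.17, 1.42 and 3.67 TPM at 10, 20 and 30 DAP. Sobic.008G185900 had 5263 TPM at 1-2 DBP and 3425 TPM at 0-2 DAP, and then 18026, 14769 and 14981 TPM at 10, 20 and 30 DAP. Of both genes, each within 2-fold at pollination, one was therefore near absent later and the other was higher.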

How the data were processed

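RNA of sorghum pistils and seeds was sequenced at 5 stages in 14 libraries. The authors deposited 1 table of TPM values per gene and stage, per the file headers, with each column summing to 1000000; how libraries were combined is not stated. The submitters' processing notes list HISAT2, DESeq2 and featureCounts 2.2.0 but give them no role. The genome build is not given in the sources used here. Depth is unknown, since TPM keeps no read number, so no interval or floor is given. Stages were compared on log2(TPM + 1) among genes with at least 1 TPM at 1-2 DBP or 0-2 DAP, and a gene was called past 2-fold. The calling step was run on a copied column in which some abundant genes were changed by a known fold, without noise. That checks the arithmetic only and gives no error rate for weak genes or for differences near 2-fold. A limma test was planned only for a table with 1 column per library, so none was run. Of 29 planned gene lists 0 could be used, because the reference carries no matching ID. Named genes are the 2 largest gains and losses among genes of at least 20 TPM, plus IDs within 2-fold that bound runs or lead a column; the rules on further moved genes were applied without printing IDs. The members and lists were chosen with earlier results of these data known, and the 50 TPM, 5% and 0.1 TPM limits and the Sobic.003G bounds after values were seen. Alternatives were other pseudocounts, filters, scalings and fold limits, and leaving out abundant or named sets. Python 3.11.15, numpy 2.4.6 and pandas 2.3.3 were used.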

Additional observations from a re-analysis of the deposited data

How the results depend on the processing

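The balance of gains and losses among moved genes of at least 10 TPM, 50.1% higher as reported, fell to either side of 50% by setting, with 49.8% at a pseudocount of 0.1 and the values below. The log2 differences of the 4 named moved genes kept their sign. These genes were chosen for the largest differences, so no setting run could have reversed them. Of 92 values recomputed under the alternatives 41 moved, where a count moved by over 1.5 times or a share left the exact 95% binomial interval of the reported one. The interval treats genes as independent and serves only as a yardstick. The 92 include 16 log2 differences of the 4 named genes, of which 5 moved, meaning a shift of at least 1.5-fold. With a pseudocount of 5 there were 1013 higher and 862 lower genes, with a 4-fold limit 541 and 349, and with a 1.5-fold limit 4186 and 3746. Under the other settings run, both counts stayed within 1.5 times.

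The share of higher genes among moved genes with a mean under 10 TPM was 62.1% with a 5 TPM entry limit, 61.1% with median-ratio scaling, 53.6% with quantile normalization and 60.7% at 1.5-fold. For means of at least 10 TPM it was 44.9% with median-ratio scaling, 53.8% without the 100 most abundant genes, 55.9% at 4-fold and 46.2% at 1.5-fold. Some settings were chosen after seeing the data. Without the Sobic.003G stretch and the Sobic.K IDs the latter share was 52.6%. Without the higher genes near absent at 10 DAP, and with TPM rescaled, both shares were 69.8% and 57.7%, the counts were 2446 higher and 1363 lower, and the median log2 difference of all genes became 0.11.

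Higher genes with their highest value at 0-2 DAP made up 50.9% with median-ratio scaling, 52.4% with quantile normalization and 75.5% with a pseudocount of 5. Lower genes with their highest value at 1-2 DBP made up 51.9%, 58.5% and 78.9% in the same order. At least 1 TPM at 30 DAP was found for 49.0%, 59.6% and 46.8% of the higher and 65.3%, 70.6% and 68.7% of the lower genes in that order, and for 35.4% and 54.1% with a pseudocount of 0.1. At 10 DAP the shares were 68.8% and 66.0% with a pseudocount of 0.1 and 81.5% and 79.8% with 5. Of the lower genes of at least 50 TPM 7.78% were under 5% at 10 DAP with median-ratio scaling. The cause of these shifts was not tested.

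No paired analysis was possible because every stage has a single TPM column, and leaving out single libraries could not be run for the same reason. Depth is unknown, so counting error cannot be set beside any value. Spread between libraries is unknown too, and differences in genes of few TPM are the least certain.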
